A study of Homo sapiens with 2 samples.

Results

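The 26 KMT2D peaks described here lay in 5 windows around TNFRSF14, TNFRSF13B, TNFRSF13C, TNFRSF17 and FAS, receptor genes of the tumour necrosis factor (TNF) receptor superfamily that B cells use. A peak belonged to a window when its highest point lay inside it, and these 26 were 0.105% of the 24824 peaks listed. The list came from chromatin immunoprecipitation with sequencing (ChIP-seq) of KMT2D (MLL4) in OCI-LY7, an established human lymphoma line of the type GCB-DLBCL (diffuse large B-cell lymphoma resembling germinal centre B cells) whose genotype is given as wt. The ChIP group held 1 library, made with a KMT2D antibody of the laboratory's own that binds the N-terminal part, from cells fixed in 1% formaldehyde for 10 min. The input group held 1 library from the same line made without antibody, and separate values for it were not analysed here. With 1 ChIP library from 1 line no value could be checked against a replicate, and no p-value was computed. Its sequencing depth is unknown, and KMT2D may also sit where the list names no peak. A peak list holds no expression values, so the cell type of the line was not checked against marker genes.

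KMT2D is a histone methyltransferase that marks enhancers by methylating lysine 4 of histone H3, and lymphomas that arise from germinal centre B cells often carry inactivating mutations of its gene. TNF receptors bind trimeric ligands outside the cell and pass the signal to adaptor proteins inside it. TNFRSF14 (HVEM) binds the ligands LIGHT and lymphotoxin alpha and also the inhibitory receptor BTLA, and it is a recurrent target of loss in germinal centre lymphoma. TNFRSF13B (TACI), TNFRSF13C (BAFF receptor) and TNFRSF17 (BCMA) are the receptors for the B-cell survival ligands BAFF and APRIL. FAS carries a death domain and starts apoptosis when FAS ligand binds it.

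The windows were 100 to 150 kb long, and positions of peaks are on hg19 as the list gives them. They were chr1:2440000-2550000 for TNFRSF14, chr17:16780000-16930000 for TNFRSF13B, chr22:42270000-42380000 for TNFRSF13C, chr16:12010000-12110000 for TNFRSF17 and chr10:90700000-90830000 for FAS. Other genes share these regions. In a RefSeq gene table of GRCh38.p14, used for names only, the nearest protein-coding neighbours on each side were HES5 and PRXL2B for TNFRSF14, CCDC144A and MPRIP for TNFRSF13B, SHISA8 and CENPM for TNFRSF13C, NPIPB2 and SNX29 for TNFRSF17, and ACTA2 and CH25H for FAS. The next genes outward were PANK4 and MMEL1 for TNFRSF14, ZNF624 and PLD6 for TNFRSF13B, and SREBF2 and SMIM45 for TNFRSF13C. They were GSPT1 and CPPED1 for TNFRSF17, and STAMBPL1 and LIPA for FAS. NPIPB2 overlapped TNFRSF17 and ACTA2 overlapped FAS in that table. A peak is therefore described by its window, and whether it lies at a promoter, in an intron or between genes was not analysed here, since no hg19 annotation was used.

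RefSeq promoter sequences, from 250 bases before to 50 bases after an annotated start, were matched by symbol for 3 of the 5 genes. They are shown because they are the regulatory DNA at the annotated start of these receptor genes. Their coordinates are on GRCh38.p14 and cannot be compared with those of the hg19 peaks, and no peak was placed on them. Each runs 5′ to 3′ on the strand of the gene, with CG dinucleotides in capitals. FAS had 3 entries, of which the table's first is printed. TNFRSF13C and TNFRSF17 were not matched.
TNFRSF14, chr1:2556121-2556420, plus strand: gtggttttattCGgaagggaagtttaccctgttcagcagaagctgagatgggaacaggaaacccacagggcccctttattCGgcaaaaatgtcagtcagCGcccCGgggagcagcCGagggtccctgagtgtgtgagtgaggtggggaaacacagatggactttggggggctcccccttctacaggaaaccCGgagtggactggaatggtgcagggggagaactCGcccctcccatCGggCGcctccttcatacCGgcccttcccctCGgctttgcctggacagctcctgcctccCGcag
TNFRSF13B, chr17:16972069-16972368, minus strand: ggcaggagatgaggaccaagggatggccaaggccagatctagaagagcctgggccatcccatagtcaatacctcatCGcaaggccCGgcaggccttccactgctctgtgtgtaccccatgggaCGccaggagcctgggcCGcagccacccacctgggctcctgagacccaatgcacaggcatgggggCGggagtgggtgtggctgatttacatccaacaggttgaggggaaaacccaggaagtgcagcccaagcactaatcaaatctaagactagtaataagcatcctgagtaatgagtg
FAS, chr10:88990548-88990847, plus strand: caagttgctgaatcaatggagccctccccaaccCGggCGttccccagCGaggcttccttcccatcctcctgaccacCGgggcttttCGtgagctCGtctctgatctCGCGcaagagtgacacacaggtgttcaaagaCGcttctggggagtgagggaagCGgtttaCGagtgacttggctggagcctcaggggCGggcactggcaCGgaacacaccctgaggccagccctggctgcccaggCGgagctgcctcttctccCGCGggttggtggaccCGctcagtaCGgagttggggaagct

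These promoters differed in CG content. The FAS sequence held 18 CG dinucleotides and its other entries 22 and 14, the TNFRSF14 sequence held 12 and the TNFRSF13B sequence held 5. The median over the 35116 promoters of the table was 14. At least 18 were found in 44.5% of those promoters, at least 12 in 53.1% and at least 5 in 70.4%, so none of the printed sequences stood at an extreme. The motif GGAA, the core bound by ETS-family factors, was searched on both strands. It occurred 8 times in the TNFRSF14 promoter, a number reached by 3.78% of all promoters, 3 times in that of TNFRSF13B (66.0%) and 6 times in the printed FAS sequence (16.1%). The other FAS entries held it 5 times (28.6%) and 3 times (66.0%). The motif was found at least once in 95.5% of all promoters, and a match is a description of the sequence and not a bound site.

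The number of KMT2D peaks listed in a window ran from 1 to 12. The TNFRSF13C window held 12 peaks, TNFRSF14 held 6, TNFRSF13B held 5, TNFRSF17 held 2 and FAS held 1. Per 100 kb this was 10.9 for TNFRSF13C (exact Poisson 95% interval 5.64 to 19.1), 5.45 for TNFRSF14 (2.002 to 11.9), 3.33 for TNFRSF13B (1.08 to 7.78), 2.0 for TNFRSF17 (0.242 to 7.22) and 0.769 for FAS (0.0195 to 4.29). Among all pairs of windows, only TNFRSF13C and FAS had intervals that did not overlap. The intervals cover counting error over peaks only, and neighbouring peaks are not independent.

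**Figure D1:**
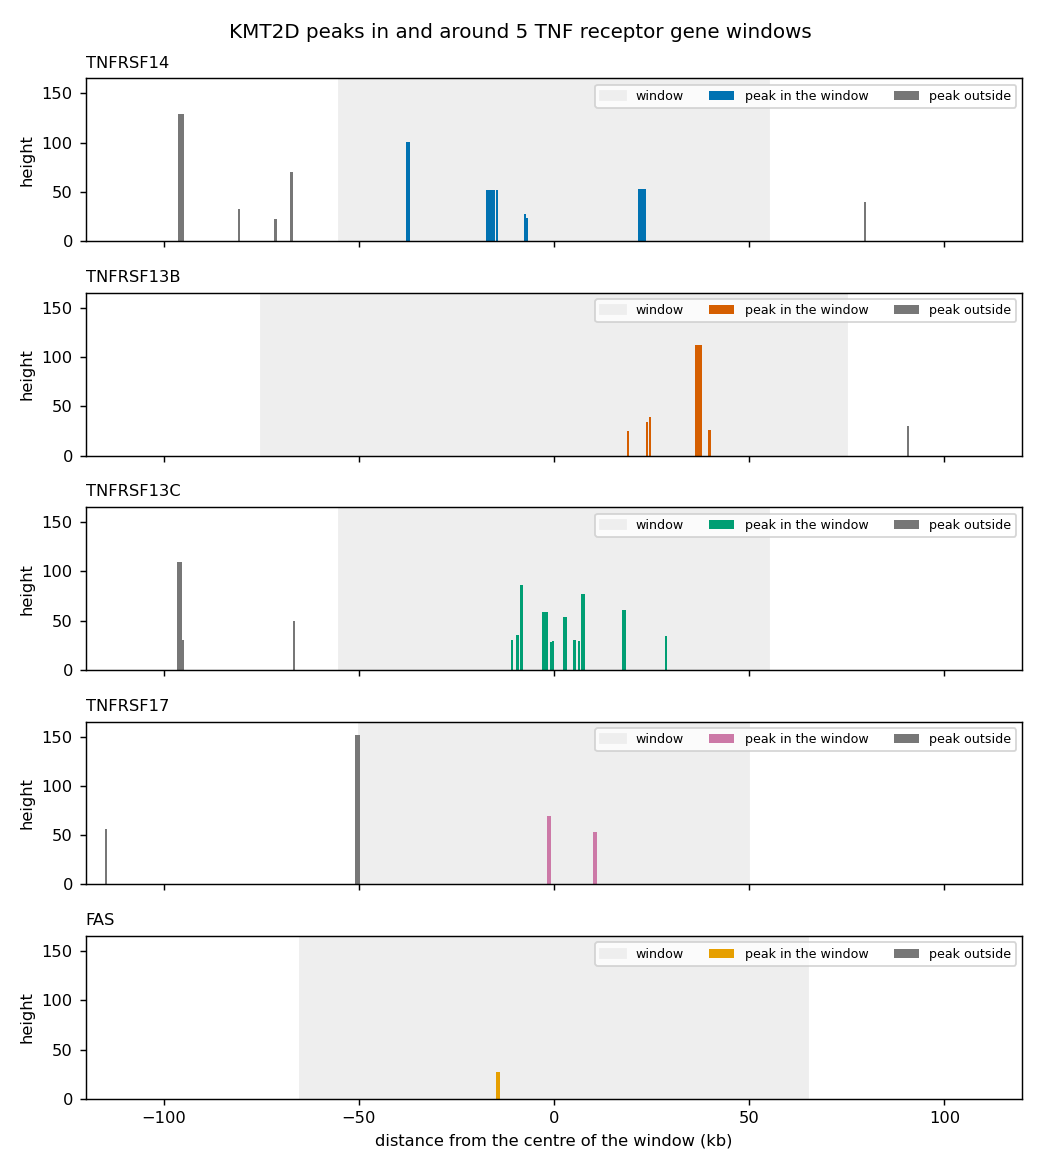
KMT2D peaks around the 5 receptor genes, by distance from the centre of each window in kb (x axis) and by height in the authors' units (y axis). Coloured bars are peaks whose highest point lay in the window (grey band), grey bars are peaks outside it, and bars narrower than 0.6 kb are drawn at that width; the 12 TNFRSF13C peaks form a tight group, the FAS window has 1 low peak, and a peak of height 152 stands on the left edge of the TNFRSF17 window.

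Set beside the rest of its own chromosome, the density was 5.50 times as high in the TNFRSF14 window (exact conditional 95% interval 2.01 to 11.98) and 5.22 times as high in the TNFRSF13C window (2.69 to 9.18). Among the highest-scoring 25% of peaks, 1 peak was left at TNFRSF14 and its ratio of 3.42 had an interval of 0.0865 to 19.1, which included 1. Over all peaks, ratios for the other windows had intervals that included 1. They were 1.84 for TNFRSF13B (0.598 to 4.31), 1.56 for TNFRSF17 (0.189 to 5.67) and 0.997 for FAS (0.0252 to 5.57). The 26 peaks together compared with 8.38 that the densities of the 5 chromosomes would give over the same lengths, a ratio of 3.10 (2.03 to 4.54). Without the TNFRSF13C window the ratio was 2.30 (1.26 to 3.86), from 14 peaks against 6.09. Of these 14, TNFRSF14 gave 6 against 1.09, TNFRSF13B 5 against 2.71, TNFRSF17 2 against 1.28 and FAS 1 against 1.00. A ratio without both TNFRSF13C and TNFRSF14 was not computed, so the pooled values do not show an excess at each receptor. The pooled values are set beside the rest of each chromosome, which includes unassembled sequence. No pooled ratio beside the nearer surroundings was computed. Copy number in the line was not corrected for, and its part in these ratios was not tested.

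The surroundings of the receptors differed as well. Within 1 Mb on each side, a comparison added after seeing the data, the region around TNFRSF14 held 53 peaks, or 2.65 per 100 kb, so that the ratio of the window to its surroundings was 2.06 (0.723 to 4.78). That mean joins unlike sides. The 110 kb directly before the window held 8 peaks, above the 6 of the window, and the 110 kb directly after it held 1. For TNFRSF13C the ratio to the flanking 73 peaks was 2.99 (1.48 to 5.54). The TNFRSF17 window, with 2 peaks, had a ratio of 0.645 beside 62 flanking peaks, and its interval (0.0764 to 2.43) included 1. TNFRSF13B stood at 1.71 (0.526 to 4.34) beside 39 flanking peaks and FAS at 1.40 (0.0325 to 9.62) beside 11. The TNFRSF13C interval alone lay above 1 in both comparisons.

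Each chromosome was also divided into tiles of the length of its window. Of the 307 tiles on chromosome 22, 1.95% held at least as many peaks as the TNFRSF13C window, which was itself 1 of those 6 tiles. For TNFRSF14 the share was 4.47% of 2259 tiles on chromosome 1. It was 22.7% of 542 tiles on chromosome 17 for TNFRSF13B, 25.4% of 902 tiles on chromosome 16 for TNFRSF17 and 38.1% of 1039 tiles on chromosome 10 for FAS. Many tiles were empty and some lie in unassembled sequence. Among tiles with at least 1 peak, a comparison added after seeing the data, the shares were 2.91% for TNFRSF13C, 11.3% for TNFRSF14, 36.0% for TNFRSF13B and 64.3% for TNFRSF17, and 100% by construction for FAS.

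**Figure D2:**
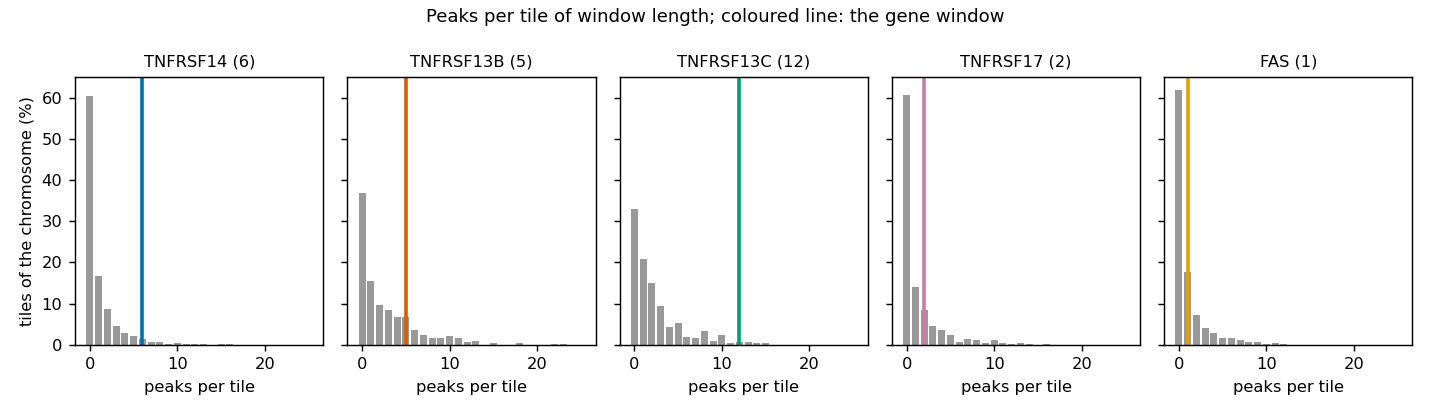
Number of KMT2D peaks per tile (x axis) against the share of the chromosome's tiles in percent (y axis), with tiles as long as the gene window. The coloured line marks the gene window, with its number of peaks in the title; TNFRSF13C (12 peaks) and TNFRSF14 (6 peaks) lie in the right tail, where 1.95% and 4.47% of tiles had at least as many.

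TNFRSF13C encodes the BAFF receptor, which mature B cells need for survival. Its 12 peaks formed 1 cluster after peaks at most 12500 bp apart were joined. This cluster ran over 39.7 kb at chr22:42314183-42353920, of which peaks covered 18.1%, and it had no member outside the window. Clusters of 10 or more peaks made up 2.04% of the 4962 clusters of 2 or more in the list, and 34 clusters held more peaks than this one. As many peaks were held by 12 clusters, this one included. With stitching at 5 kb, 83.3% of the 12 peaks lay in a cluster. The nearest other peaks were 55.6 kb before the 39.7 kb cluster, with a height of 50, and 113 kb after it, with a height of 55.

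Within the TNFRSF13C cluster, tall and low peaks were interspersed. The tallest, at chr22:42316278-42317103, had a height of 86, a width of 825 bp, a score of 47.1 and a significance value of -57.5. Height is a whole number in the authors' units, and the significance value is negative, more so for stronger peaks, and never above -15. The next in height was 77, at chr22:42331951-42332845. Heights of 61, 59 and 54 were found at chr22:42342460-42343425, chr22:42321881-42323447 and chr22:42327429-42328336, and the second of these was the widest of the cluster at 1566 bp. The other 7 peaks had heights of 28 to 35 and widths of 100 to 713 bp. The lowest height listed on the rest of chromosome 22 was 24. The median of the 12 heights was 34.5, against 45 on the rest of chromosome 22. This order depended on how low and closely spaced peaks were treated. With peaks under 500 bp apart merged, the window held 9 peaks with a median height of 54, against 49 on the rest of the chromosome, and among the highest-scoring 50% of peaks the medians were 61 and 58.5.

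TNFRSF14, the receptor for LIGHT and BTLA, had peaks spread over 61.4 kb. The tallest was a lone peak at chr1:2457198-2458176, with a height of 101, a width of 978 bp, a score of 52.8 and a significance value of -76.4. It was 2.59 times as high as the list median, and 95.4% of the peaks on chromosome 1 were lower. A cluster of 4 peaks followed 19.4 kb further on, at chr1:2477561-2488070, with heights of 52, 52, 27 and 23. The last peak, at chr1:2516501-2518553, was again alone and had a height of 53.

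The TNFRSF14 window held 2 broad peaks. Its first cluster peak was 2402 bp wide and its last peak 2052 bp, while peaks over 2000 bp made up 2.22% of the list. These were the only 2 of the 26 peaks above that width (7.69%; exact binomial 95% interval 0.946 to 25.1%), an interval that includes the share of the list. Both were low for their width. Among the 239 listed peaks within 10% of a width of 2402 bp, 23 were at most as high as 52, and among the 435 within 10% of 2052 bp, 73 were at most as high as 53. Peaks covered 5.86% of the TNFRSF14 window, against 0.682% of the rest of chromosome 1, and 6.53% of the TNFRSF13C window, against 1.28% of the rest of chromosome 22. Of the 6444 bp covered at TNFRSF14, the 2 broad peaks gave 2402 and 2052 bp. Coverage was compared after seeing the data, without an interval, and coverage of the nearer surroundings was not computed.

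TNFRSF13B, or TACI, binds both BAFF and APRIL, and its window held the tallest of the 26 peaks. This peak, at chr17:16891108-16892939, had a height of 112, a width of 1831 bp, a score of 61.9 and a significance value of -82.8. Of the peaks on chromosome 17, 95.4% were lower, as were 638 of the 703 listed peaks within 10% of its width. On chromosome 17 alone, 36 of 45 peaks of like width were at most as high, this peak included. The other 4 peaks of the window had heights of 25, 34, 39 and 26, in order of position, and widths of 101 to 502 bp. All 5 lay within 21.1 kb at chr17:16873838-16894900 and formed 1 cluster, joined across a gap of 11244 bp before the tallest peak. The first 93.8 kb of the window held no listed peak, and the nearest peak before the cluster was 158 kb away. The window thus held 1 tall peak and 4 lower ones.

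TNFRSF17, or BCMA, is the APRIL receptor of plasma cells. Its 2 peaks were alike, with heights of 69 at chr16:12058242-12059200 and 53 at chr16:12070097-12070999 and widths of 958 and 902 bp. The taller had a score of 33.9 and a significance value of -38.3. Both were above the median of 44 on the rest of chromosome 16, and they lay 10.9 kb apart. The nearest peak after them was 170 kb away. A taller peak stood on the border of the window, at chr16:12009037-12010423 with a height of 152, and its highest point lay outside. Of the 2.28 kb of this window under peaks, 423 bp belonged to that peak. Counted by any overlap, the window held 3 peaks with a median height of 69, against 2 peaks with a median of 61 by highest point.

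FAS, the death receptor, had 1 peak, at chr10:90750256-90751218. Its height was 27, its score 18.8 and its significance value -19.3, and 24.4% of the peaks on chromosome 10 were lower. The nearest peaks were 109 kb before it, with a height of 70, and 260 kb after it, with a height of 41. With a width of 962 bp it was low for its width: of 2818 listed peaks within 10% of that width, 21 (0.745%) were at most as high, and the median of these 2818 was 62. On chromosome 10, 2 of 133 peaks of like width were at most as high, this peak included. The comparisons by width, here and for TNFRSF14 and TNFRSF13B, were chosen after these values were seen.

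Peaks just outside the windows show how far membership depended on the edges. Peaks nearest to an edge from outside had their bases 11.8 kb before (height 70) and 24.4 kb after (height 40) the TNFRSF14 window, and 64.2 kb before (height 41) and 15.4 kb after (height 30) the TNFRSF13B window. Around TNFRSF13C they lay 11.4 kb before (height 50) and 86.5 kb after (height 55) the window, and around FAS 59.0 kb before (height 70) and 181 kb after (height 41). The first peak of TNFRSF14 began 17.2 kb inside the edge, which was the shortest such distance among the 26. Only at TNFRSF17 did a peak cross an edge.

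**Figure D3:**
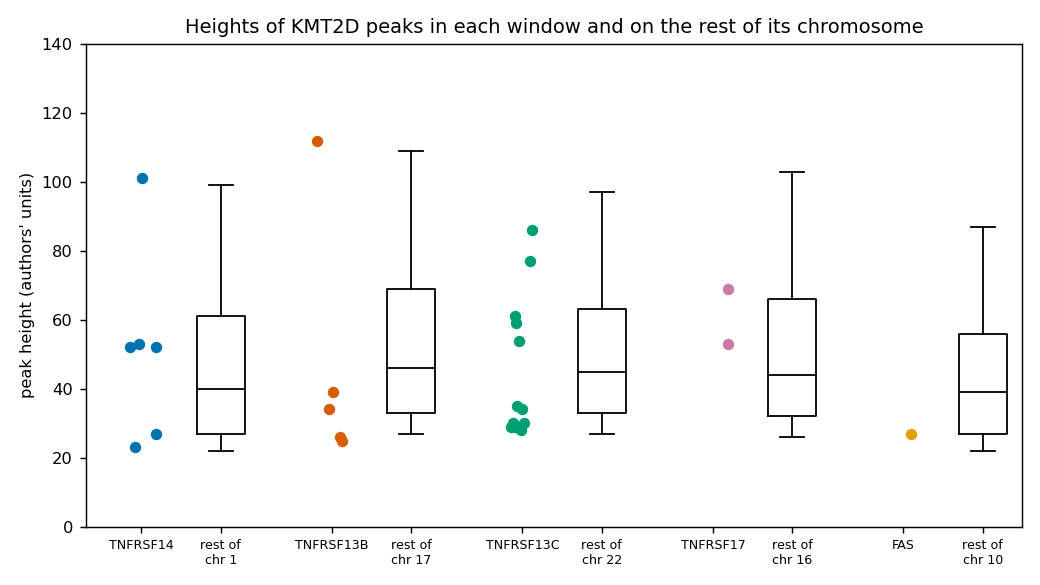
Heights of the KMT2D peaks in the authors' units (y axis) for each receptor window, 1 point a peak with sideways scatter added, and for the rest of its chromosome, as a box of the quartiles with a line at the median and whiskers at the 5th and 95th percentiles. The tallest peaks of TNFRSF13B (112) and TNFRSF14 (101) lie just above the upper whiskers of their chromosomes, and the FAS peak (27) lies at the lower quartile.

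As a set, the 26 peaks had heights near those of the list. Their median height was 37 (order-statistic 95% interval 29 to 54), against 39 (39 to 40) over 24772 peaks on chromosomes 1 to 22 and X. A height of at least 2 times the list median, or 78, was reached by 3 of 26 peaks (11.5%; exact binomial 95% interval 2.45 to 30.2%), against 11.4% of the list. These were the tallest peaks of TNFRSF13B, TNFRSF14 and TNFRSF13C. Heights above the list median were found in 12 of 26 (46.2%), against 49.7% of the list. The median width was 648.5 bp (288 to 958 bp), against 609 bp (601 to 618 bp).

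Most of the peaks had a close neighbour. Of the 26, 23 lay in clusters of 2 or more (88.5%; exact 95% interval 69.8 to 97.6%), against 63.4% of the list. The exceptions were the FAS peak and the first and last peaks of TNFRSF14. The TNFRSF13C cluster alone gave 12 of these 23 peaks, and a share without it was not computed. The higher share is therefore not shown for each receptor. With stitching at 5 kb, the clustered share was 83.3% at TNFRSF13C and 0% at TNFRSF17, and it did not change in the other windows. The share of the list at 5 kb was not computed. A neighbour under 500 bp away was found for 12 of 26 peaks (46.2%; 26.6 to 66.6%), against 27.3% of the list, which lies inside that interval. These included 4 of the 6 TNFRSF14 peaks, in pairs 161 bp and 137 bp apart. Peaks of a cluster are not independent, which these intervals do not take into account.

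Weak peaks were present in 4 of the 5 windows. A significance value above -20, near the bound of -15, was given for 10 of 26 peaks (38.5%; exact 95% interval 20.2 to 59.4%), against 25.1% of the list. The share of the list lies inside that interval. TNFRSF13C had 5 of these 10 peaks, TNFRSF13B 3, TNFRSF14 and FAS 1 each and TNFRSF17 had 0. The lowest heights were 28 at TNFRSF13C, 25 at TNFRSF13B and 23 at TNFRSF14, against 24, 23 and 19 for the lowest peaks on the rest of chromosomes 22, 17 and 1. The highest point lay within 1% of the start of the peak for 2 of the 26 (7.69%; exact 95% interval 0.946 to 25.1%), against 0.844% of the list. Both were in the TNFRSF13B window, in peaks of 101 and 154 bp, narrower than the list median of 609 bp. Width and height rose together in the 26 peaks, with correlations of 0.76 (Spearman) and 0.61 (Pearson), against 0.84 and 0.68 over the list. These correlations are across peaks of 1 library, which are not independent replicates.

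**Figure D4:**
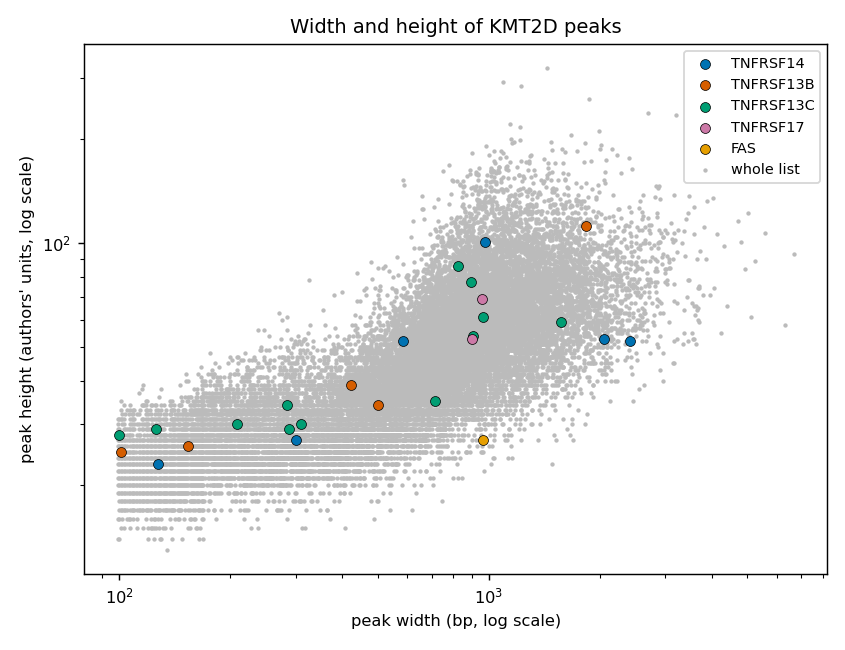
Width in bp (x axis, log scale) and height in the authors' units (y axis, log scale) of the 26 peaks, coloured by receptor window, over the 24772 listed peaks in grey. The FAS peak (962 bp, height 27) sits at the lower border of the cloud, and the TNFRSF14 peaks of 2402 and 2052 bp lie low among wide peaks.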

How the data were processed

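The ChIP-seq samples from OCI-LY7 cells were 1 KMT2D library and 1 input library, and the data analysed were 1 peak list of 11 columns without a header. The submitters' processing notes name CASAVA 1.8.2 and the build hg19. Which programs aligned the reads and called peaks, at which threshold and with which use of the input, is not given in the sources used here, nor is whether positions count from 0 or from 1. Columns were read from their values. The authors deposited a signal per peak, read as its height, with no normalization stated. They also deposited 2 score columns: a positive score, and negative values called the significance value, with none above -15. The deposited percent column places the highest point between start and end. All are the authors' own values and only describe or rank peaks within this list. Depth is unknown.

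Peaks on chromosomes 1 to 22 and X were compared. Density on the rest of a chromosome used the span from its first to its last peak, which includes unassembled sequence. Peaks at most 12500 bp apart were joined into clusters. Tiles of window length were laid out in step with the window. Intervals are at 95% and cover counting error over peaks only. Functions were tested on simulated data. The 5 genes, the windows and all comparisons were chosen with earlier results of these data known. The text gives in full the tallest peak of each window and each peak at least 2 times as high as the list median, and other peaks by position, range or count. Distances to gene starts and other genes of the pathway were not analysed here, since they need hg19 annotation. The software was scipy 1.17.1, pandas 2.3.3, numpy 2.4.6 and, for plots, matplotlib 3.10.9, under Python 3.11.15.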

Additional observations from a re-analysis of the deposited data

How the results depend on the processing

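A count moved when it changed by over 1.5 times, and other values when they left their own 95% interval (for medians of under 6 peaks, their range). Of 113 alternative values, 96 stayed and 17 moved. Keeping the highest-scoring 50% of all peaks left 5 peaks at TNFRSF13C, 1 at TNFRSF13B and 0 at FAS, whose density ratio was then 0, while TNFRSF14 kept 4 and TNFRSF17 kept 2. The highest-scoring 25% left 4 peaks at TNFRSF13C with a median height of 68, 1 each at TNFRSF14, TNFRSF13B and TNFRSF17, and 0 at FAS, again with a density ratio of 0. Fewer peaks enter under both cuts by construction. Widening each window by 50 kb on both sides gave 11 peaks at TNFRSF14. Stitching at 5 kb put 0% of the TNFRSF17 peaks and 83.3% of the TNFRSF13C peaks in a cluster, against 100% of each in the main setting. Tiles with at least 1 peak, chosen after seeing the data, gave 11.3% for TNFRSF14, 36.0% for TNFRSF13B, 64.3% for TNFRSF17 and 100% for FAS, because empty tiles are left out. The density ratio of TNFRSF13B was 0.615 among the highest-scoring 50% of peaks, against 1.84 over all peaks, and that of TNFRSF17 was 0.645 beside 1 Mb on each side. Both lay inside their intervals. For TNFRSF13C the ratio ranged from 2.99 to 6.23 and for TNFRSF14 from 2.06 to 8.59 over all alternatives, of which a common minimum height of 26, bases covered in place of peaks and the 1 Mb comparison were added after seeing the data. The interval for TNFRSF14 included 1 among the highest-scoring 25% of peaks (3.42; 0.0865 to 19.1) and beside 1 Mb on each side (2.06; 0.723 to 4.78). Merging peaks under 500 bp apart and membership by any overlap moved no value by these bounds, although the TNFRSF17 window held 3 peaks by overlap in place of 2, and merging raised the median height at TNFRSF13C to 54, inside its wide interval but above the 49 of the rest of the chromosome, where over all peaks it was below (34.5 against 45). Medians also changed sides of their chromosome among the highest-scoring 50% of peaks at TNFRSF14 (52.5 against 61), TNFRSF13B (112 against 63) and TNFRSF13C (61 against 58.5), and among the highest-scoring 25% at TNFRSF13B (112 against 81) and TNFRSF17 (69 against 78). No paired analysis was possible because there was 1 ChIP library.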
